A study of Mus musculus with 6 samples.

Results

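*Akr1b8* encodes an aldo-keto reductase, an enzyme that uses NADPH to reduce reactive aldehydes and ketones to alcohols. Its transcript was picked because it had been seen at a higher level in liver F4/80-positive cells of Lpcat3 KOMac than of WT mice, and the question here was whether genes of the NRF2 pathway followed it. The 10 genes described are *Akr1b8*, its paralog *Akr1b3*, the NRF2 targets *Nqo1*, *Gclm*, *Gclc*, *Slc7a11*, *Srxn1* and *Txnrd1*, and *Nfe2l2* and *Keap1*, which encode NRF2 itself and its inhibitor. They were found by their GENCODE symbols among the 49315 Ensembl genes counted, and all 10 were among the 16134 genes with enough counts to be tested.

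RNA of the F4/80-positive cells, labelled as Kupffer cells, was sequenced from 3 WT mice (*Lpcat3* fl/fl, LysM+/+) and 3 Lpcat3 KOMac mice (*Lpcat3* fl/fl, LysMCre/+), with 1 library per mouse. They were littermates on a C57BL/6N background, young adults when the diet began, and were fed a high-fat diet (60% fat) for 16 weeks. No other treatment of the sequenced mice is named in the sources used here. The floxed allele was present in both groups, and Cre came from the LysM (*Lyz2*) locus, which is active in myeloid cells, so that other liver cells in the preparation keep *Lpcat3*. *Lpcat3* encodes an acyltransferase that places polyunsaturated fatty acids into phospholipids.

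NRF2 is a transcription factor that is normally held in the cytoplasm by KEAP1, an adaptor of the *Cul3* ubiquitin ligase, and degraded. Oxidants and electrophiles modify cysteines of KEAP1, NRF2 then escapes degradation, pairs with a small MAF protein and binds antioxidant response elements (ARE) near its targets. Most of this control acts on the NRF2 protein, which RNA sequencing does not measure. The targets make and recycle glutathione and thioredoxin, supply NADPH, and reduce or export reactive compounds, and liver macrophages, which take up red blood cells, lipids and dying cells, handle much heme and iron.

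The bases before the transcription start are shown for *Akr1b8* and for *Srxn1* and *Txnrd1*, the members whose levels across the libraries lay nearest to those of *Akr1b8*. Sequences are from RefSeq (build GRCm38.p6), 5′ to 3′ on the + strand, 250 bases before the start, and capitals mark letters that match a motif.
*Akr1b8*, chr6:34353896-34354145: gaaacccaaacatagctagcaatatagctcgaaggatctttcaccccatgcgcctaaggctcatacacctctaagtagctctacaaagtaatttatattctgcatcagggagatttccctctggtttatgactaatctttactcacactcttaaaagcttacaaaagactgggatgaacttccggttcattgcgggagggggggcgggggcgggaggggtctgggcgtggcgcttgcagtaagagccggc
*Srxn1*, chr2:152105274-152105523: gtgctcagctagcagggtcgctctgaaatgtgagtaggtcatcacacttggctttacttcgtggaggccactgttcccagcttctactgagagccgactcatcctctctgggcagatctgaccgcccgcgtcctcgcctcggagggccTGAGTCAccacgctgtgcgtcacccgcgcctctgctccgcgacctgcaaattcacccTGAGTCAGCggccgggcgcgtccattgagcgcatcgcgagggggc
*Txnrd1*, chr10:82858956-82859205: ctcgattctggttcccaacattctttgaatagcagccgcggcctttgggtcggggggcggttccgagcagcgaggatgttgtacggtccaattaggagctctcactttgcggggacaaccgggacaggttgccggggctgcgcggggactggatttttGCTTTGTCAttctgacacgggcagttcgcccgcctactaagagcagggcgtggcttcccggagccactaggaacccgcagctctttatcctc

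Letters of 3 motifs were searched on both strands of the whole 300-base windows, which run on for 50 bases from the start. These were the ARE core TGACNNNGC, the AP-1 site TGANTCA, and TGANTCAGC, the site of NRF2-like factors with small MAF proteins, each match of which holds an AP-1 match inside it. The window of *Akr1b8* held none of them. That of *Srxn1* held TGAGTCA with its first base 102 bases before the start, TGAGTCAGC at 45 bases before it, and the ARE core as GCTAGGTCA (on the other strand) 28 bases after it. *Txnrd1* has 3 annotated starts, and the window shown held the core as GCTTTGTCA at 92 bases before the start. The core also stood before *Nfe2l2* (TGACTCCGC, 240 bases) and *Gclm* (GCACCGTCA, 134 bases). Windows were given for 8 of the 10 members, and those of *Akr1b3* and *Gclc* were not analysed here. In all, 4 of the 10 windows of members (40.0%) held the ARE core, against 4071 of 32851 windows of all genes (12.4%) and 7 of 27 windows of 21 other NRF2 targets (25.9%). TGANTCAGC was in 1 of 10 windows of members (10%), in 4 of 27 of the other targets (14.8%) and in 1.19% of all windows, while TGANTCA, with or without the added letters, was in 1 (10%), 5 (18.5%) and 7.81%. These matches describe letters within 300 bases and say nothing of sites farther away.

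Total counts lay between 44954224 and 71392812 per library, and levels are given as CPM, read counts scaled to library size with TMM factors. A log2 fold change is Lpcat3 KOMac against WT, given with its standard error (SE). *Lpcat3* was at 70.8 ± 12.5 CPM (SD, n = 3) in WT cells, against 24.1 ± 7.99 CPM (SD, n = 3) in Lpcat3 KOMac cells (log2 fold change -1.56, SE 0.26), and *Lyz2*, the gene that carries Cre, differed by -1.42 (SE 0.30), both lower in every Lpcat3 KOMac library. The 6 Kupffer cell transcripts summed to 24900 to 34000 CPM in WT and 18900 to 27200 CPM in Lpcat3 KOMac libraries, and *Clec4f* was lower in every Lpcat3 KOMac library (log2 fold change -0.44, SE 0.17). Transcripts of other cells were also present. The 5 hepatocyte transcripts (*Alb*, *Apoa1*, *Ttr*, *Fgb*, *Serpina3k*) summed to 1720 to 20200 CPM in WT and 4320 to 12400 CPM in Lpcat3 KOMac libraries, with WT mouse 1 and Lpcat3 KOMac mouse 2 highest. Sums were 795 to 909 and 880 to 1060 CPM for sinusoidal endothelium, 49.8 to 129 and 93.6 to 172 CPM for stellate cells, and at most 3.00 CPM for lymphocytes. No marker searched was at 0 in all libraries. In such bulk RNA, fewer cells of a type and less RNA per cell cannot be told apart.

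*Akr1b8* (ENSMUSG00000029762, chromosome 6, 34354119 to 34368463, + strand, GRCm38) was at 6.65, 6.91 and 6.63 CPM across WT mice 1 to 3, against 11.9, 9.64 and 11.1 CPM across Lpcat3 KOMac mice 1 to 3. The WT libraries were nearly level, and each Lpcat3 KOMac library stood above all of them. These levels rested on 303 to 432 reads in WT and 500 to 689 reads in Lpcat3 KOMac libraries. The WT mean was 6.73 ± 0.156 CPM (SD, n = 3) and the Lpcat3 KOMac mean 10.9 ± 1.13 CPM (SD, n = 3), a 1.61-fold difference (log2 fold change 0.69, SE 0.13). Because *Akr1b8* was chosen on this difference, it is a description and carries no test. Over 13 other settings of the analysis its log2 fold change stayed between 0.68 and 0.79, and between 0.66 and 0.78 over the fits that dropped a single mouse. In the same libraries the 5 markers of monocytes and recruited macrophages summed to 98.0 to 392 CPM in WT and 401 to 456 CPM in Lpcat3 KOMac mice. Of the 5, 2 (*Gpnmb* and *Spp1*) were separated, with every Lpcat3 KOMac library above every WT library, as in 2.29% of all genes tested. The 3 neutrophil markers summed to 1.96 to 2.95 and 3.93 to 5.29 CPM, with *S100a8* separated, and the 3 cholangiocyte markers to 0.280 to 0.590 and 0.672 to 0.694 CPM. Each of these 3 sums was higher in every Lpcat3 KOMac library, as *Akr1b8* was. Within WT the monocyte and macrophage sum was not level as *Akr1b8* was, at 218, 98.0 and 392 CPM across WT mice 1 to 3. The cholangiocyte sums were at most 0.694 CPM, and each of the 3 markers overlapped between genotypes. In the neutrophil list *S100a9* and *Retnlg* overlapped. Of the 5 endothelial markers 4 had a positive log2 fold change (median 0.49, beside 0.50 for the monocyte and recruited macrophage list), with *Kdr* at 75.5 ± 17.7 CPM (SD, n = 3) in WT cells, against 130 ± 38.8 CPM (SD, n = 3), and overlapping groups. All 4 stellate cell markers had a positive log2 fold change (median 0.32), and their groups overlapped. The part of any of these cells in the level of *Akr1b8* was not tested. Few of its reads could belong elsewhere by sequence, since 42 of its 1448 stretches of 50 bases (2.9%) also occurred in another transcript, most of them in the neighbouring paralog *Akr1b10*.

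**Figure D1:**
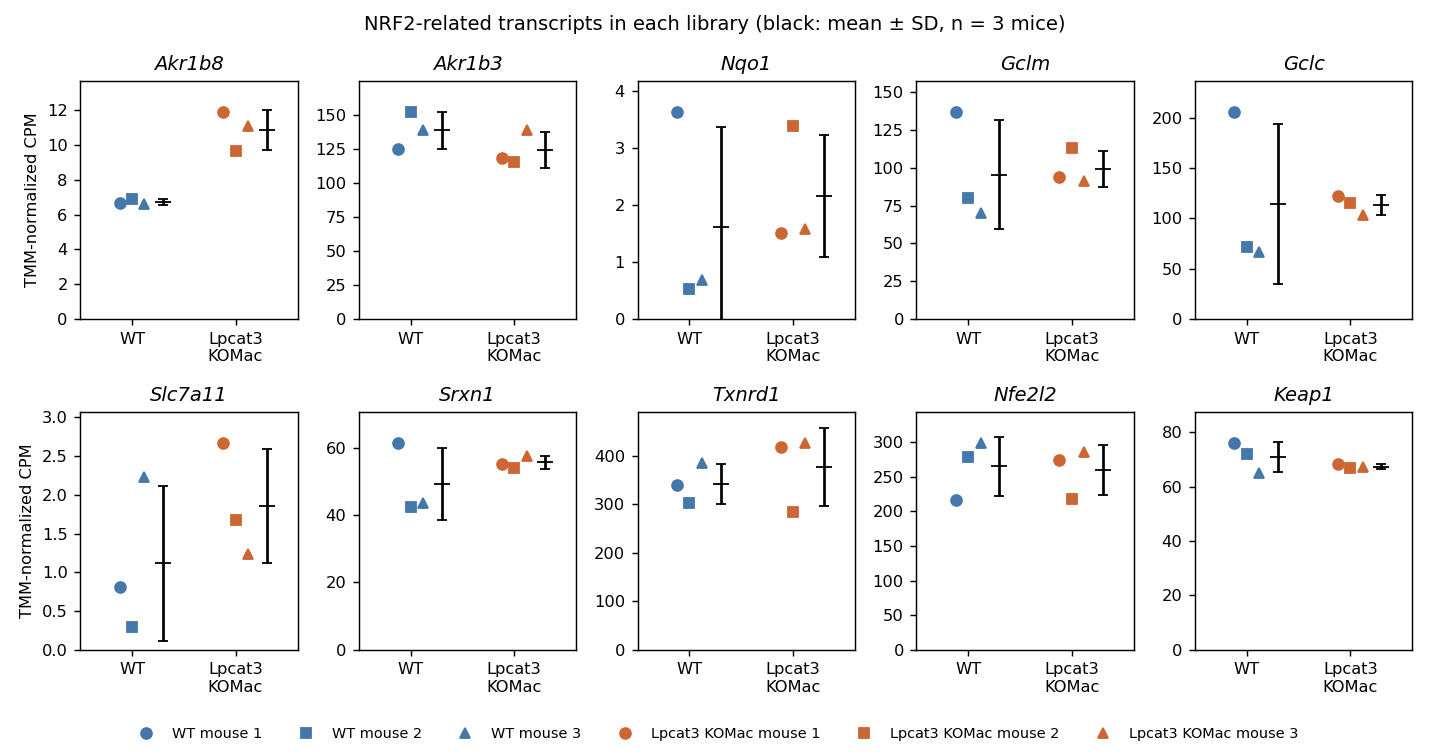
Level of each of the 10 transcripts in TMM-normalized CPM (y axis, from 0, scaled per gene) in WT (blue) and Lpcat3 KOMac (orange) libraries, with 1 symbol per mouse and black bars for the mean ± SD (n = 3), of which the lower WT bar of *Nqo1* runs below 0 and stops at the axis. *Akr1b8* is the transcript whose groups lie apart (6.63 to 6.91 against 9.64 to 11.9 CPM), and in *Nqo1*, *Gclm*, *Gclc* and *Srxn1* WT mouse 1 stands above the other WT mice.

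The transcripts of NRF2 and its inhibitor showed no shift between genotypes that was larger than the spread between mice. *Nfe2l2* (chromosome 2, 75675513 to 75704641) was at 217, 279 and 299 CPM across WT mice 1 to 3, against 275, 218 and 286 CPM across Lpcat3 KOMac mice 1 to 3. Its lowest values belonged to WT mouse 1 and Lpcat3 KOMac mouse 2, and the groups covered nearly the same range. The WT mean was 265 ± 42.7 CPM (SD, n = 3) and the Lpcat3 KOMac mean 260 ± 36.4 CPM (SD, n = 3), with a log2 fold change of -0.03 (SE 0.17) whose sign turned without WT mouse 2 (0.01), WT mouse 3 (0.07) or Lpcat3 KOMac mouse 2 (0.10). *Keap1* (chromosome 9, 21229730 to 21239361) was at 76.1, 71.9 and 65.0 CPM across the WT mice, against 68.3, 66.8 and 67.1 CPM across the Lpcat3 KOMac mice. The Lpcat3 KOMac values of *Keap1* were close together and fell inside the WT range, and its log2 fold change was -0.08 (SE 0.08). Scaling by total counts alone turned the sign of both, to 0.06 for *Nfe2l2* and 0.02 for *Keap1*. An antisense gene, *Gm16754*, shares 510 exonic bases with *Keap1* and held at most 146 counts in any library, against 2972 to 4944 for *Keap1*.

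*Akr1b3*, the paralog that encodes aldose reductase of the polyol pathway, lies beside *Akr1b8* on the opposite strand (chromosome 6, 34302434 to 34317478) and was not higher in Lpcat3 KOMac cells. Its levels were 125, 152 and 139 CPM across WT mice 1 to 3, against 118, 115 and 139 CPM across Lpcat3 KOMac mice 1 to 3. The groups overlapped, with WT mouse 2 highest and Lpcat3 KOMac mouse 2 lowest, and the log2 fold change was -0.16 (SE 0.12). Of the stretches of 50 bases of *Akr1b3*, 13.6% also occur in other transcripts, mostly unnamed gene models, so its level is less certain than those of the other members. *Akr1b10*, the other neighbour, had 56.1, 75.1 and 72.1 CPM across the WT mice, against 57.9, 55.5 and 66.7 CPM across the Lpcat3 KOMac mice (log2 fold change -0.17, SE 0.14). *Akr1b7* held 3 to 5 reads per library and was not tested.

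The 3 members that serve glutathione synthesis overlapped between genotypes. *Gclc*, the catalytic subunit of glutamate-cysteine ligase (chromosome 9, 77754535 to 77794485), was at 206, 71.3 and 66.2 CPM across WT mice 1 to 3, against 122, 115 and 103 CPM across Lpcat3 KOMac mice 1 to 3. WT mouse 1 was the highest of all 6, the other WT mice were the lowest, and the Lpcat3 KOMac mice lay between them. Its means were equal to 3 digits, 114 ± 79.0 CPM (SD, n = 3) in WT cells, against 114 ± 9.59 CPM (SD, n = 3) in Lpcat3 KOMac cells (log2 fold change -0.01, SE 0.47). *Gclm*, the modifier subunit of the same enzyme (chromosome 3, 122245557 to 122270732), had 137, 79.8 and 69.9 CPM across the WT mice, against 94.0, 113 and 91.4 CPM across the Lpcat3 KOMac mice. The order of the extremes was the same as for *Gclc*, and the log2 fold change was 0.06 (SE 0.27). Leaving out WT mouse 1 brought *Gclc* to 0.73 (SE 0.11) and *Gclm* to 0.41 (SE 0.13). *Gclc* was at 0.07 without Lpcat3 KOMac mouse 3, and *Gclm* was at -0.06, -0.12 and -0.04 without WT mouse 2, WT mouse 3 and Lpcat3 KOMac mouse 2.

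*Slc7a11*, the transport chain of the cystine importer that feeds glutathione synthesis (chromosome 3, 49892526 to 50443614), was near the low end of detection. It was at 0.816, 0.299 and 2.23 CPM across WT mice 1 to 3, against 2.67, 1.68 and 1.23 CPM across Lpcat3 KOMac mice 1 to 3, on 15 to 102 and 58 to 155 reads. WT mouse 3 stood within the Lpcat3 KOMac values and the other WT mice below them. Its log2 fold change of 0.74 was of the size of that of *Akr1b8*, with an SE as large as itself (0.74), and it ran from 0.29 to 1.72 when single mice were left out. *Slc7a11* is also a target of ATF4, the factor of the amino acid and endoplasmic reticulum stress responses. Of 10 genes of that pathway, 3 had a positive and 7 a negative log2 fold change (median -0.14). None of them reached an unadjusted p under 0.05, beside 1.07% of all genes higher and 1.57% lower. Without WT mouse 1, 2 of them (*Trib3* and *Asns*, higher) did, beside 9.67% of all genes higher at that p, and the median was 0.08. *Slc3a2*, the partner chain of *Slc7a11*, was at 389 ± 50.9 CPM (SD, n = 3) in WT cells, against 361 ± 42.8 CPM (SD, n = 3) in Lpcat3 KOMac cells, and *Atf4* at 104 ± 5.19 and 91.5 ± 14.2 CPM (SD, n = 3 each). *Sesn2*, a stress-induced sensor of leucine, was at 50.3 ± 4.68 and 44.8 ± 6.29 CPM (SD, n = 3 each). *Ddit4*, a stress-induced inhibitor of mTORC1, had 113 CPM in WT mouse 1 and 4.91 to 11.9 CPM in the other 5 libraries.

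*Srxn1* and *Txnrd1* keep the thioredoxin and peroxiredoxin system reduced. *Srxn1*, the sulfiredoxin that repairs overoxidized peroxiredoxins (chromosome 2, 152105516 to 152111376), was at 61.4, 42.5 and 43.7 CPM across WT mice 1 to 3, against 55.2, 54.0 and 57.6 CPM across Lpcat3 KOMac mice 1 to 3. WT mouse 1 was above every Lpcat3 KOMac mouse and the other WT mice below them, and the log2 fold change was 0.18 (SE 0.16), or 0.37 (SE 0.08) without WT mouse 1. *Txnrd1*, the cytosolic thioredoxin reductase (chromosome 10, 82859206 to 82897724), had 340, 303 and 385 CPM across the WT mice, against 419, 285 and 427 CPM across the Lpcat3 KOMac mice. Here Lpcat3 KOMac mouse 2 was the lowest of the 6 and the other Lpcat3 KOMac mice were the highest, with a log2 fold change of 0.14 (SE 0.19).

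*Nqo1*, the quinone reductase that is often read as the marker of NRF2 activity (chromosome 8, 107388225 to 107403206), was scarce in these cells. It was at 3.63, 0.519 and 0.678 CPM across WT mice 1 to 3, against 1.5, 3.39 and 1.57 CPM across Lpcat3 KOMac mice 1 to 3, on 26 to 236 reads. WT mouse 1 and Lpcat3 KOMac mouse 2 had the highest values, and the groups overlapped. The log2 fold change was 0.41 (SE 0.84), and it was 1.85 without WT mouse 1, -0.01 without WT mouse 2 and -0.08 without Lpcat3 KOMac mouse 2.

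None of the 9 members other than *Akr1b8* passed the test between genotypes. In the edgeR quasi-likelihood test, Benjamini-Hochberg adjusted over 16134 genes, the adjusted p was 1 for each of the 9, and unadjusted p-values ran from 0.219 (*Akr1b3*) to 0.984 (*Gclc*). No gene at all passed an adjusted p of 0.05 (0%), while 172 genes (1.07%) had an unadjusted p under 0.05 with higher and 254 (1.57%) with lower levels in Lpcat3 KOMac cells. DESeq2 called 15 genes (0.093%), and 0 of the 9 members were among them. In 369 of all genes tested (2.29%) every Lpcat3 KOMac library was above every WT library, and in 839 (5.2%) every one was below. Among the 9 members, 0 were separated in either direction. Their log2 fold changes were positive in 5 and negative in 4, ran from -0.16 to 0.74 and had a median of 0.06, beside -0.04 over all genes. Without WT mouse 1, 4 of the 9 were higher and 0 lower at an unadjusted p under 0.05 in the edgeR test. The shares over all genes there were 9.67% and 2.63%. The median of the 9 was 0.37 in that fit, and that of the 5 hepatocyte transcripts was 1.92.

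**Figure D2:**
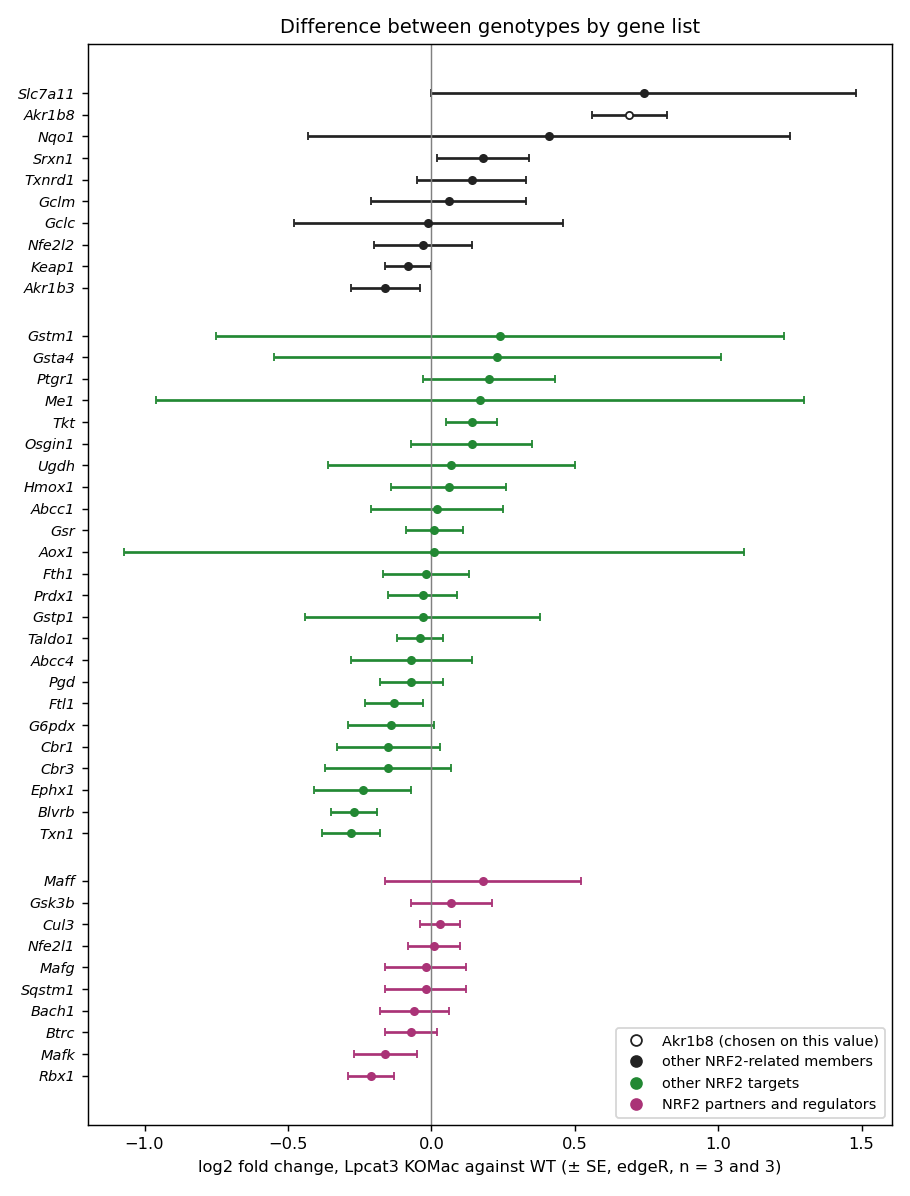
Log2 fold change (x axis, Lpcat3 KOMac against WT, bars ± SE from edgeR, n = 3 and 3) of the 10 transcripts (black, with *Akr1b8* as an open circle because it was chosen on this value), of 24 other NRF2 targets (green) and of 10 partners and regulators of NRF2 (purple). Apart from *Slc7a11* at 0.74 with an SE of 0.74, the value nearest to that of *Akr1b8* (0.69) is *Nqo1* at 0.41, and the green values run from -0.28 to 0.24.

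A broader list of NRF2 targets had log2 fold changes in both directions, some of them with a large SE. These were *Me1* (0.17, SE 1.13), *Aox1* (0.01, SE 1.08), *Gstm1* (0.24, SE 0.99) and *Gsta4* (0.23, SE 0.78), whose differences are thus uncertain in size. Of 25 listed, 24 were tested and *Gpx2* had no read in any library. Of the 24, 0 had an unadjusted p under 0.05 with higher levels and 2 with lower levels, beside 1.07% and 1.57% of all genes. Among the 24, 11 log2 fold changes were positive and 13 negative, and the median was -0.02. Without WT mouse 1, 6 were higher and 2 lower at that p, against 1595 (9.67%) and 433 (2.63%) of all genes, and the median was 0.03. The 3 with the highest CPM were *Ftl1* and *Fth1*, the ferritin chains that store iron, and *Hmox1*, the heme oxygenase that releases it. *Hmox1* was at 1480, 1370 and 1190 CPM across WT mice 1 to 3, against 1400, 1070 and 1740 CPM across Lpcat3 KOMac mice 1 to 3, with Lpcat3 KOMac mice at both ends of the order (log2 fold change 0.06, SE 0.20). *Ftl1* differed by -0.13 (SE 0.10) and *Fth1* by -0.02 (SE 0.15).

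Of these 24 targets, 1 was higher and 2 were lower in every Lpcat3 KOMac library than in every WT library, beside 2.29% and 5.2% of all genes. *Txn1*, the thioredoxin that *Txnrd1* reduces, was at 551, 579 and 544 CPM across WT mice 1 to 3, against 445, 421 and 510 CPM across Lpcat3 KOMac mice 1 to 3 (log2 fold change -0.28, SE 0.10). *Blvrb*, a reductase of biliverdin and flavins, had 261, 267 and 251 CPM across the WT mice, against 206, 208 and 233 CPM across the Lpcat3 KOMac mice (log2 fold change -0.27, SE 0.08). Every Lpcat3 KOMac value of both lay under every WT value, the opposite order to that of *Akr1b8*. *Tkt*, the transketolase of the pentose phosphate pathway, had 345, 327 and 346 CPM across the WT mice, against 354, 408 and 360 CPM across the Lpcat3 KOMac mice (log2 fold change 0.14, SE 0.09), all above the WT mice by a small margin. The unadjusted p-values were 0.0308 for *Txn1*, 0.0199 for *Blvrb* and 0.169 for *Tkt*, and each adjusted p was 1 (edgeR quasi-likelihood test, Benjamini-Hochberg adjusted). With total counts alone or the replicate number as a block, 0 of the 24 had an unadjusted p under 0.05 in this test. The same held without WT mouse 2, Lpcat3 KOMac mouse 1 or Lpcat3 KOMac mouse 2, while the hepatocyte covariate gave 4. Total counts alone gave -0.19 for *Txn1* and -0.17 for *Blvrb*.

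The partners and regulators of NRF2 had small log2 fold changes. Of 10 tested, 4 had a positive and 6 a negative log2 fold change, between -0.21 and 0.18 (median -0.02). *Sqstm1*, which binds KEAP1 and takes it to autophagy, was at 453 ± 72.4 CPM (SD, n = 3) in WT cells, against 447 ± 29.6 CPM (SD, n = 3) in Lpcat3 KOMac cells. *Nfe2l1*, a relative of NRF2, was at 193 ± 12.4 and 195 ± 14.4 CPM (SD, n = 3 each), and *Gsk3b*, a kinase that marks NRF2 for degradation, at 110 ± 14.5 and 116 ± 13.2 CPM (SD, n = 3 each). *Bach1*, the repressor that competes for the same sites, was at 112 ± 13.3 and 107 ± 8.79 CPM (SD, n = 3 each). *Rbx1*, the RING subunit of the cullin ligases that includes the KEAP1 ligase, was separated, with 63.6, 57.9 and 59.5 CPM across WT mice 1 to 3, against 52.0, 50.6 and 53.6 CPM across Lpcat3 KOMac mice 1 to 3. Its log2 fold change was -0.21 (SE 0.08), with an unadjusted p of 0.0310 and an adjusted p of 1 in the edgeR quasi-likelihood test, Benjamini-Hochberg adjusted. It was the 1 gene of the 10 so separated, beside 5.2% of all genes, and the 1 at an unadjusted p under 0.05, beside 1.57% lower. With total counts alone, 0 of the 10 had such a p, and the same held when any single mouse other than WT mouse 2 was left out.

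Among the other aldo-keto reductases, none was higher in every Lpcat3 KOMac library, beside 2.29% of all genes. Of 11 listed, 9 were tested, and 1 had a positive and 8 a negative log2 fold change (median -0.17, range -0.52 to 0.37). In either direction 0 had an unadjusted p under 0.05, beside 1.07% of all genes higher and 1.57% lower. Without WT mouse 1 the median turned to 0.63, with 5 of the 9 higher and 1 lower at that p, against 9.67% and 2.63% of all genes. Without Lpcat3 KOMac mouse 2 as well the median was 0.51, with 5 higher and 0 lower, against 8.63% of all genes higher. Those 5 were *Akr1c6*, *Akr1c12*, *Akr1c14*, *Akr1d1* and *Akr7a5* in both fits, named after their values were seen. With the hepatocyte covariate the median of the 9 was -0.11. *Akr1a1*, the aldehyde reductase with the highest CPM of the family, was at 954, 849 and 909 CPM across WT mice 1 to 3, against 803, 813 and 803 CPM across Lpcat3 KOMac mice 1 to 3. Each Lpcat3 KOMac mouse was thus below each WT mouse (log2 fold change -0.17, SE 0.08), as in 5.2% of all genes. *Akr1c6*, a hydroxysteroid dehydrogenase, had 454, 37.9 and 20.2 CPM across the WT mice, against 111, 169 and 78.9 CPM across the Lpcat3 KOMac mice, an order led by the libraries with the most hepatocyte RNA.

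Several members also varied with the hepatocyte transcripts. Their mean log2 CPM was 11.33, 7.89 and 7.36 across WT mice 1 to 3, against 9.16, 10.26 and 8.86 across Lpcat3 KOMac mice 1 to 3, a 15.7-fold range. The genotypes differed in this mean by 0.56 on the log2 scale (two-sided exact permutation p = 0.7, where the smallest possible is 0.1). The fitted log2 fold changes of the 5 hepatocyte transcripts had a median of -0.38, of the other sign. *Nqo1* was 6.07 times higher in WT mouse 1 than in the mean of the other WT mice and 2.21 times higher in Lpcat3 KOMac mouse 2 than in the mean of the other Lpcat3 KOMac mice. The same ratios were 2.99 and 1.02 for *Gclc*, 1.83 and 1.22 for *Gclm*, and 1.42 and 0.958 for *Srxn1*. They were 0.983 and 0.841 for *Akr1b8*, 0.988 and 0.674 for *Txnrd1*, 0.751 and 0.778 for *Nfe2l2* and 0.645 and 0.860 for *Slc7a11*. WT mouse 1 was the highest of the 6 libraries in 5 of the 10 members, and in 11 of the 24 other targets tested. *Gstm1*, a glutathione transferase, was one of these, at 431, 46.5 and 50.6 CPM across the WT mice, against 152, 335 and 138 CPM across the Lpcat3 KOMac mice. The share of all genes that were highest in WT mouse 1 was not counted, so the 5 and 11 are not read as a trait of NRF2 targets. What part hepatocyte RNA had in the levels of *Nqo1*, *Gclc*, *Gclm* and *Srxn1* was not tested.

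**Figure D3:**
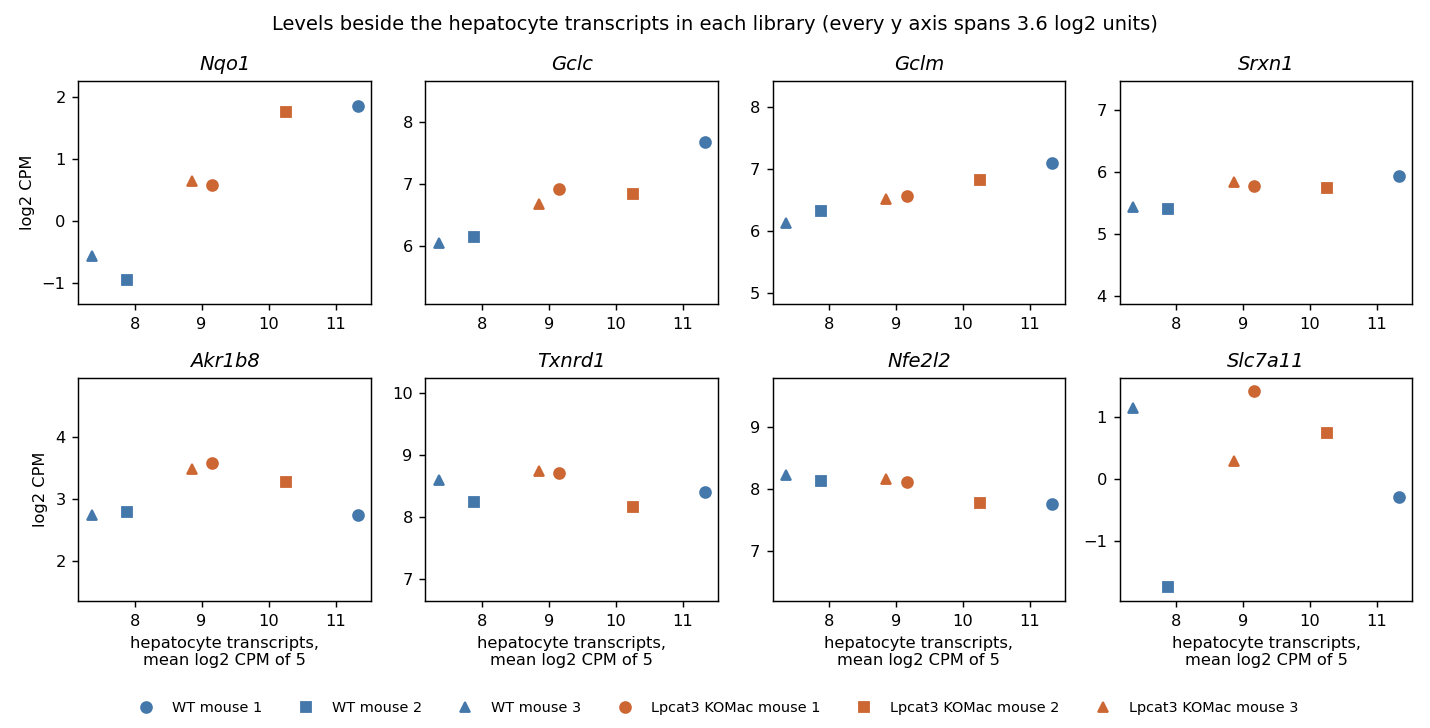
Log2 CPM of 8 of the transcripts (y axis, each spanning the same number of log2 units) against the mean log2 CPM of 5 hepatocyte transcripts (x axis) in the 6 libraries, blue for WT and orange for Lpcat3 KOMac, with 1 symbol per mouse. *Nqo1*, *Gclc* and *Gclm* are highest at the right, where WT mouse 1 lies (11.33), while the 3 Lpcat3 KOMac points of *Akr1b8* lie above the 3 WT points, which span the whole x axis.

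The genotype difference of *Akr1b8* stayed close to its size when these libraries were handled otherwise, while those of 4 other members did not. *Akr1b8* was chosen for its difference in these same libraries and the other members were not. Its steadiness is thus a description and no support for the difference. With the hepatocyte mean as a covariate in edgeR, the log2 fold change was 0.70 (SE 0.13) for *Akr1b8*, 0.49 (SE 0.27) for *Nqo1*, 0.14 (SE 0.09) for *Srxn1*, -0.01 (SE 0.06) for *Gclm* and -0.01 (SE 0.15) for *Gclc*. Leaving out WT mouse 1 and Lpcat3 KOMac mouse 2 together, a setting chosen after seeing the data, gave 0.76 (SE 0.15) for *Akr1b8*, 1.36 (SE 0.32) for *Nqo1*, 0.72 (SE 0.12) for *Gclc*, 0.39 (SE 0.08) for *Srxn1* and 0.31 (SE 0.10) for *Gclm*. In that comparison of 2 with 2 mice, these 4 of the 9 members had an unadjusted p under 0.05 with higher levels in Lpcat3 KOMac cells, as did 1391 of 16126 genes (8.63%) and 4 of the 5 hepatocyte transcripts. So did 6 of the 24 other targets (*Gsta4*, *Gstm1*, *Gstp1*, *Me1*, *Aox1* and *Ugdh*), with 0 lower and a median log2 fold change of 0.10, beside -0.01 under the covariate. The adjusted p was 0.109 for *Gclc*, 0.154 for *Srxn1*, 0.192 for *Nqo1* and 0.338 for *Gclm* (edgeR quasi-likelihood test, Benjamini-Hochberg adjusted). The hepatocyte transcripts themselves had a median log2 fold change of 1.31 there, since the Lpcat3 KOMac mice that remained held more of them than the WT mice that remained. Under the covariate the same 4 members lay between -0.01 and 0.49. *Txnrd1* was at 0.16 (SE 0.18) and 0.30 (SE 0.14) under these settings, and *Slc7a11* at 0.91 (SE 0.71) and 0.64 (SE 0.95).

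**Figure D4:**
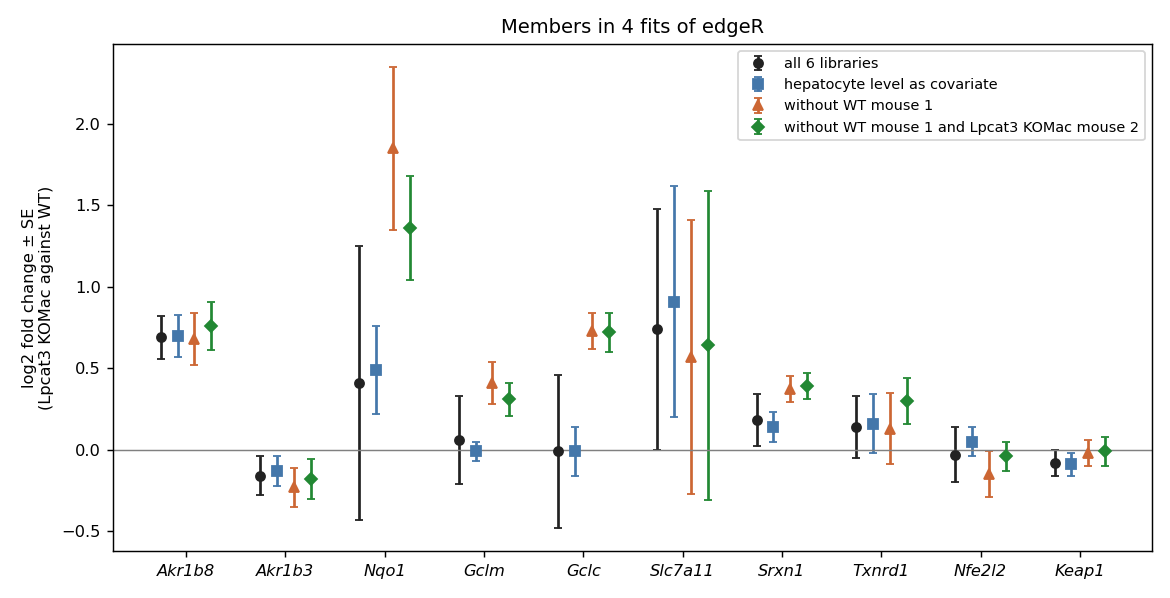
Log2 fold change (y axis, Lpcat3 KOMac against WT, bars ± SE) of each of the 10 transcripts in 4 fits of edgeR, with all 6 libraries (black), with the hepatocyte level as a covariate (blue), without WT mouse 1 (orange) and without WT mouse 1 and Lpcat3 KOMac mouse 2 (green). *Akr1b8* runs from 0.68 to 0.76, whereas *Nqo1* runs from 0.41 to 1.85 and *Gclc* from -0.01 to 0.73.

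Per exonic length, the members covered a wide span of levels, and *Akr1b8* was among the lower ones. Over the 6 libraries *Txnrd1* was highest, at a mean of 105 CPM per kb (range 83.5 to 125), followed by *Nfe2l2* at 69.1 CPM per kb (57.2 to 78.7). *Gclc* (30.3), *Srxn1* (18.6), *Akr1b3* (15.7), *Gclm* (15.5) and *Keap1* (14.7 CPM per kb) came next, and within this group each range overlapped that of its neighbour in the order. *Akr1b8* was at 5.87 CPM per kb (4.42 to 7.92), below the range of *Keap1* and above that of *Nqo1*. *Nqo1* was at 1.21 (0.334 to 2.34) and *Slc7a11* at 0.107 CPM per kb (0.0215 to 0.192).

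**Figure D5:**
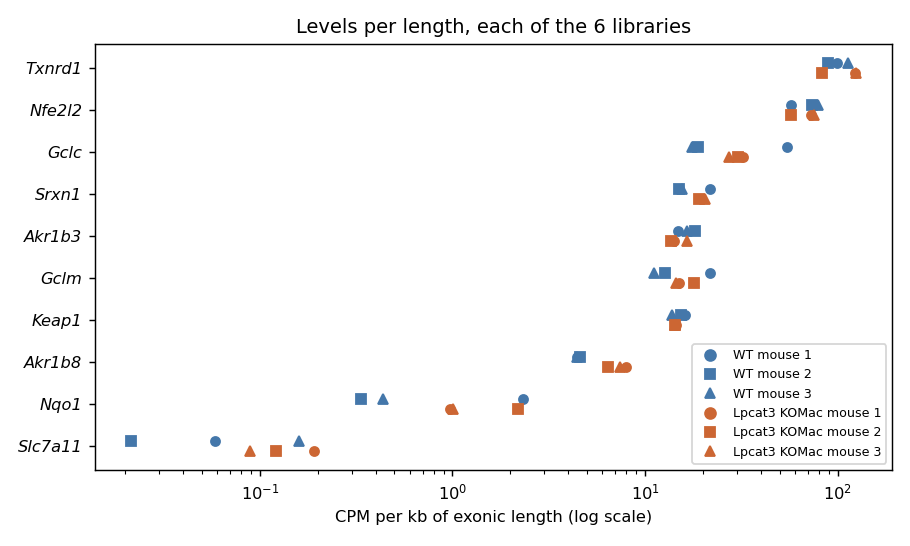
CPM per kb of exonic length (x axis, log scale) of each transcript in the 6 libraries, blue for WT and orange for Lpcat3 KOMac, with 1 symbol per mouse and transcripts ordered by their mean. *Txnrd1* (mean 105) and *Slc7a11* (mean 0.107) mark the ends, and the *Akr1b8* libraries lie between 4.42 and 7.92.

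The transcripts most like *Akr1b8* across the libraries were not NRF2 targets of these lists. Likeness was taken as the root mean square difference of log2 CPM, each gene centred on its mean over the 6 libraries, among 13000 genes with a mean of at least 1 CPM. The nearest were *Ccm2l* (0.11 log2 units), *Alox12* (0.13), *Mapk12* (0.14), *Dchs1* (0.15) and *Ets1* (0.15). *Ccm2l*, for example, was at 4.63, 4.89 and 5.36 CPM across WT mice 1 to 3, against 7.90, 6.96 and 9.2 CPM across Lpcat3 KOMac mice 1 to 3. Of the other NRF2 targets listed, *Tkt* came nearest, as gene 511 in this order (0.31 log2 units), with 3.92% of genes nearer. Of the other members, *Srxn1* came nearest, as gene 464 (0.31 log2 units, 3.56% of genes nearer), followed by *Txnrd1* as gene 707 (0.32, 5.43%). *Nfe2l2* (0.38) and *Keap1* (0.39) were farther, and *Slc7a11* (0.88) and *Nqo1* (0.98) were the farthest, as genes 11764 and 11944. The 6 libraries that set these distances are the same ones in which *Akr1b8* was chosen, so the order is a description.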

How the data were processed

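RNA of liver F4/80-positive cells (magnetic beads, poly-A libraries) from 3 WT and 3 Lpcat3 KOMac mice was sequenced (1 library each). The values the authors deposited are read counts for 49315 Ensembl genes in each library, not normalized. The submitters' processing notes name Trimmomatic 0.36, STAR 2.5.2b, featureCounts, Subread 1.5.2 and GRCm38. The strand setting and the treatment of multi-mapping reads are not given in the sources used here, so paralogs and overlapping genes are uncertain. Symbols came from GENCODE M21 (49056 identifiers matched), and promoter sequences from RefSeq.

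The genotypes were tested with edgeR 4.0.16 (R 4.3.3, TMM, default low-count filter with a minimum count of 10, robust quasi-likelihood test, genotype as the only term, Benjamini-Hochberg adjustment over 16134 genes, threshold 0.05). P-values measure the spread between these mice. Total counts were 44954224 to 71392812 per library, and 3 counts, the floor of detection, equal 0.0420 to 0.0667 CPM. The common biological coefficient of variation was 0.391. Alternatives were DESeq2 1.42.0, limma-voom (limma 3.58.1), DESeq2's size factors, total counts alone, other filters, no robust dispersion, a replicate block, a hepatocyte covariate, a length offset and dropping single mice. Leaving out WT mouse 1 and Lpcat3 KOMac mouse 2 together and edgeR's newer quasi-likelihood method were chosen after seeing the data.

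Genotype and replicate number came from the labels. The members and gene lists were chosen with earlier results of these data known. From each list, the text names genes whose groups do not overlap, genes with an unadjusted p under 0.05, and the 3 with the highest CPM, besides the 5 genes most like *Akr1b8*, and other genes were named after their values were seen. Replicate numbers mark different animals. The deviations of same-numbered WT and Lpcat3 KOMac mice from their group means correlated at -0.303, -0.596 and 0.360 across genes, so the numbers were not taken as pairs.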

Additional observations from a re-analysis of the deposited data

How the results depend on the processing

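EdgeR called 0 genes under its other settings, each mouse left out included (0 to 0), with 138 to 2028 genes at an unadjusted p under 0.05 against 426 with all libraries. DESeq2 called 15 genes and, with the hepatocyte covariate, 139, of which 1 (*Ddit4*, log2 fold change -1.71, SE 0.333) was in the ATF4 list. It called 0 of the 9 members other than *Akr1b8* in either fit, and gave *Slc7a11* no adjusted p in the fit with the covariate. *Lpcat3* (-1.55 and -1.65) and *Lyz2* (-1.40 and -1.31) passed the threshold only in these 2 fits. The replicate block called 0 genes and gave 0.69 for *Akr1b8*, 0.90 for *Nqo1* and, with the sign turned, 0.20 for *Gclc*. With 0 calls in the main fit as well, the block had no call to change. Under it, genes at an unadjusted p under 0.05 went from 426 to 138. Among the other NRF2 targets they went from 2 to 0, and among the partners and regulators from 1 to 0. Total counts alone moved the median of all genes from -0.04 to 0.06 and turned *Nfe2l2* to 0.06, *Keap1* to 0.02 and *Gclc* to 0.12. The hepatocyte covariate turned *Nfe2l2* to 0.05 (edgeR) and 0.06 (DESeq2), *Gclm* to -0.01 in both, and *Gclc* to 0.00 in DESeq2. Limma-voom turned *Gclc* to 0.19, and leaving out WT mouse 1 and Lpcat3 KOMac mouse 2 together turned it to 0.72. The cause of these turns was not tested. When single mice were dropped, the log2 fold change ran from -0.15 to 0.10 for *Nfe2l2*, -0.14 to -0.02 for *Keap1*, -0.23 to -0.09 for *Akr1b3*, -0.08 to 1.85 for *Nqo1*, -0.12 to 0.41 for *Gclm*, -0.29 to 0.73 for *Gclc*, 0.29 to 1.72 for *Slc7a11*, 0.08 to 0.37 for *Srxn1* and 0.06 to 0.32 for *Txnrd1*. The hepatocyte mean difference ran from -0.19 to 1.8. With 3 mice a group and a coefficient of variation of 0.391, edgeR called no gene, not even *Lpcat3* (log2 fold change -1.56, SE 0.26). The lack of a call thus does not show that a member was unchanged. With all libraries the SE was 0.84 for *Nqo1*, 0.74 for *Slc7a11* and 0.47 for *Gclc*, so small differences of these genes were not detectable here.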
